A study of Mus musculus with 7 samples.

Results

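The genes described here are 8 apolipoproteins, Apoa1, Apoa2, Apoa4, Apob, Apoc1, Apoc3, Apoe and Apod, out of 20839 genes listed in at least 1 of 7 single-cell RNA libraries of mouse thymic epithelial cells (TECs). They were picked by name, as protein carriers of fat in blood and gut, and all 8 were among the 17709 genes tested, having a unique molecular identifier (UMI, counting 1 captured RNA molecule) in at least 20 cells. Each library held EpCAM+ CD45- cells from the pooled thymi of 3 female C57BL/6 mice, so each condition was a single pool. The Aire trace library came from 6-week-old mice with Aire-CreERT2 and a Rosa26 ZsGreen reporter behind a floxed stop, given 2 mg tamoxifen on alternate days for 10 days. Their reporter marks only cells in which Aire was on while tamoxifen was present, and their descendants. The other mice were wild type and had 3 injections of 100 µg antibody within a week. Isotype control thymi were taken at week 2 (mice aged 4 weeks) and week 10 (aged 12 weeks). Anti-RANKL thymi were taken at weeks 2, 4, 6 and 10, from mice aged 4, 6, 8 and 12 weeks, so that weeks 4 and 6 had no isotype library of their age.

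Apolipoproteins wrap the lipid particles of plasma. Apoa1 and Apoa2 are the main proteins of high-density lipoprotein, Apob is the scaffold of chylomicrons and very-low-density lipoprotein, Apoa4 is made by the absorbing gut epithelium, and Apoc1 and Apoc3 restrain lipolysis and particle uptake. Apoe is the ligand for receptor-mediated uptake and is made by many cell types, macrophages among them, and Apod is a lipocalin, grouped with the others by name and function. In the thymus, medullary TECs (mTECs) express many genes that are otherwise restricted to single organs, part of them through the regulator Aire, and display them to developing T cells. Blocking RANKL, which mTECs need to mature, removes Aire+ mTECs for several weeks.

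The chromosomal neighbours were the first question, since genes that share a stretch of chromosome may appear in the same cells. On GRCm38 (mm10), Apoa1 lies at chr9:46228580-46230466 on the plus strand (ENSMUSG00000032083), Apoc3 at chr9:46232933-46235636 on the minus strand (ENSMUSG00000032081) and Apoa4 at chr9:46240696-46243459 on the plus strand (ENSMUSG00000032080). Their start sites are 7.06 kb (Apoa1 to Apoc3), 5.06 kb (Apoc3 to Apoa4) and 12.1 kb (Apoa1 to Apoa4) apart. Apoe (chr7:19696109-19699188, ENSMUSG00000002985) and Apoc1 (chr7:19689481-19692660, ENSMUSG00000040564) lie on the minus strand with starts 6.53 kb apart. Apoa2 (chr1:171225054-171226379, ENSMUSG00000005681), Apob (chr12:7977648-8016835, ENSMUSG00000020609) and Apod (chr16:31296192-31314808, ENSMUSG00000022548) each lie on a chromosome of their own among the 8.

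The RefSeq promoter windows (GRCm38.p6) of 6 of the 8 genes were at hand, Apoc1 and Apoc3 having no entry in the table used. The bases before the start site are given here for the pair of linked chromosome 9 genes, which were found in the same cells, and for Apoe and Apob, as the most and the least often detected genes. They are at chr9:46228380-46228579 (plus) for Apoa1, chr9:46240594-46240695 (plus) for Apoa4, chr12:7977427-7977647 (plus) for Apob and chr7:19699189-19699438 (minus) for Apoe. Each is written 5′ to 3′ on the gene's own strand, with capitals for matches to CAAAGTNCA (the core of the motif of the HNF4 factors of liver and gut) or to TATAAA.
Apoa1: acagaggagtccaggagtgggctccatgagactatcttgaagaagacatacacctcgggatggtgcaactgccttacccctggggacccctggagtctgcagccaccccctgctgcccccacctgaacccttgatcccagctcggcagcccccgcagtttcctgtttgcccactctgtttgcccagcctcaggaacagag
Apoa4: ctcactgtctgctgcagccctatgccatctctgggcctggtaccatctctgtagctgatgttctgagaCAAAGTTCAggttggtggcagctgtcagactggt
Apob: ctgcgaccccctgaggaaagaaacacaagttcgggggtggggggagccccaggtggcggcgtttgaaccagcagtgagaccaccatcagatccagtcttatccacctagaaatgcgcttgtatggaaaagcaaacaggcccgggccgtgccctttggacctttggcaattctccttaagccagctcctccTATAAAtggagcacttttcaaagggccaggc
Apoe: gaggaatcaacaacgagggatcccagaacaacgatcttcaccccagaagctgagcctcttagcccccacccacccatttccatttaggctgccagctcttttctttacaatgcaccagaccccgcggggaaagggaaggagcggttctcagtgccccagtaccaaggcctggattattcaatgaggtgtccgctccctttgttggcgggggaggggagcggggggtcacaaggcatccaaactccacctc
CAAAGTNCA was found in Apoa4, 34 bases before the start, and in no other of the 6 windows. TATAAA was found 31 bases before the start of Apob and 212 bases before that of Apoa2, and not in Apoa1, Apoe or Apod. Searched on both strands, CAAAGTNCA was present in 464 of 32851 RefSeq windows of 300 bases (1.41%) and TATAAA in 4473 of them (13.6%), and the motifs were picked after the sequences had been seen.

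Of 8453 cells, the 8220 with no UMI of Ptprc, the gene of CD45, were analysed. Library totals ran from 3857876 to 22197691 UMIs, and the median UMIs per cell from 4299.5 to 16809, with anti-RANKL weeks 4 and 6 the shallowest. A barcode occurred in more than 1 library for 50 barcodes (100 cells). The TEC markers Epcam, Krt8, Krt18 and H2-Aa together gave 57.5 to 87.3 UMIs per 10000 in cells without Aire and 75.0 to 117 in cells with Aire above 1.5, on the deposited scale of the natural log of 1 plus UMIs per 10000. By that scale 5159 cells had Aire 0, 1292 had Aire up to 1.5 and 1769 had Aire above 1.5. Their median depths were 6484, 12210 and 12910 UMIs, so shares of cells with a gene are given below as the share expected if every cell held 2000 UMIs, which left out 172 shallower cells. The Aire classes themselves were cut on all UMIs of each cell. Aire 0 thus means no Aire UMI at that cell's depth, and a cut takes fewer Aire UMIs in shallower cells and libraries. Intervals are exact 95% binomial ones, the limit given for a count of 0 is 3 cells of the total, and both cover counting error only.

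The 8 genes did not share 1 pattern. Apoe was found in most of the cells pooled over libraries and Apoc1 in a minority, both chiefly in cells without Aire, whereas the other 6 were rare and, where the tests called them, went up with Aire or fell in Ccl21a-high cells. Without thinning, Apoe was present in 6429 of the 8220 cells (78.2%, 77.3 to 79.1) and Apoc1 in 1726 (21.0%, 20.1 to 21.9). Apoa4 was present in 623 cells (7.58%, 7.02 to 8.17), Apoa2 in 602 (7.32%, 6.77 to 7.91), Apod in 401 (4.88%, 4.42 to 5.37), Apoc3 in 341 (4.15%, 3.73 to 4.60), Apoa1 in 322 (3.92%, 3.51 to 4.36) and Apob in 75 (0.912%, 0.718 to 1.14). In this order the intervals of Apoa4 and Apoa2, of Apod and Apoc3, and of Apoc3 and Apoa1 overlapped. At 2000 UMIs per cell the shares were 55.1% for Apoe, 10.3% for Apoc1, 3.36% for Apoa4, 2.12% for Apoa2, 1.74% for Apod, 1.71% for Apoc3, 1.59% for Apoa1 and 0.400% for Apob. The Apoe share depended on the library, and was only 27.2%, 32.3% and 36.1% in isotype weeks 2 and 10 and anti-RANKL week 10.

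Pooled over libraries, a few cells held most of the RNA of Apoa1, Apoa2, Apoc3 and Apoa4, whereas the UMIs of Apob were no more concentrated than those of Apoe and Apoc1. Each UMI stands for 1 tagged end of a transcript, so that counts of different genes are set side by side without a length correction. Apoa1 had a median of 1 UMI per cell with it, yet 62 cells had 10 or more, and the strongest 10% of its cells held 73.0% of its 3490 UMIs. Apoa2 was alike, with 74.6% of its 602 cells at exactly 1 UMI and 70.7% of its 2430 UMIs in the strongest 10%. Apoc3 (60.5% of 2052 UMIs) and Apoa4 (57.4% of 4710) followed, then Apod (50.1% of 1283) and Apob (40.4% of 255). For Apoe, with a median of 7 UMIs and 131958 in all, the strongest 10% of cells held 46.2%, and for Apoc1, with a median of 2 and 6648 in all, 43.8%.

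Single cells reached high levels of the liver and gut genes. The strongest Apoa1 cell, from isotype week 2, had 328 UMIs, 9.40% of all Apoa1 UMIs, and an Aire level of 1.467. A cell of the Aire trace library without Aire had 309 Apoa4 UMIs and 202 Apoc3 UMIs among its 24455. Another cell without Aire, from isotype week 10, had 110 Apoc3 UMIs among 4257, or 258 per 10000. The strongest Apoa2 cell had 201 UMIs (isotype week 2), and the strongest Apoe cell 422 (isotype week 2). The strong cells were found with and without Aire RNA, and class sums of Apoa1, Apoa2, Apoa4 and Apoc3 rested on few cells.

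**Figure D1:**
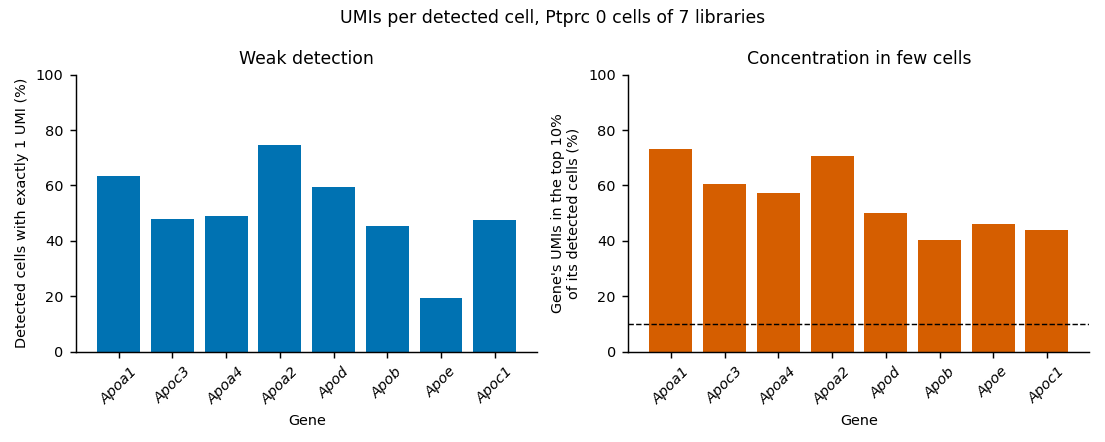
Left, the share of the cells with a gene that had exactly 1 UMI of it (%). Right, the share of the gene's UMIs held by the strongest 10% of those cells (%), the dashed line being 10%, over 8220 Ptprc 0 cells of 7 libraries. Apoa1 and Apoa2 were the most concentrated at 73.0% and 70.7%, and Apoe had the fewest cells with 1 UMI at 19.6%.

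Free RNA in the droplets can give UMIs in cells that do not express a gene. It was gauged in 73 T cells (UMIs of Ptprc and of a Cd3 gene, median 9422 UMIs), which should lack these genes. At 2000 UMIs, 33.3% of the 69 T cells deep enough had Apoe (22.4 to 45.7) and 6.41% had Apoc1 (1.93 to 15.0). The values were 2.56% for Apoa4 (0.253 to 9.57), 2.22% for Apoa2, 1.77% for Apoa1, 1.62% for Apoc3, 1.57% for Apod and 0.841% for Apob. Unthinned, 65.8% of the T cells had an Apoe UMI and 8.22% an Apoa4 UMI. The T cell UMIs of the rare genes were not spread evenly, a single T cell holding 22 of the 33 Apoa4 UMIs, 26 of 27 for Apoc3, 9 of 10 for Apoa1 and 11 of 14 for Apod. Their shares thus rest on 2 to 6 T cells each and may include more than free RNA, which was not tested. Shares of a TEC class at or below the T cell share are not read as expression.

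The first comparison asked which apolipoproteins went with Aire, between cells with Aire above 1.5 and cells with Aire 0 of the same library. Apoe fell by 3.62 on the log2 scale of summed UMIs per 10000 plus 0.1 (SE 0.37, limma adjusted p = 4.24e-05, n = 7 libraries), and Apoc1 fell by 2.19 (SE 0.14, adjusted p = 3.65e-06). Apoa2 rose by 1.46 (SE 0.26, adjusted p = 0.00138), Apod by 1.28 (SE 0.24, adjusted p = 0.00208) and Apoa4 by 0.94 (SE 0.28, adjusted p = 0.0226). Thus 3 of the 8 were called higher and 2 lower, where 17.0% of all genes tested were called higher and 25.4% lower. The median of the 8 changes was 0.55, against -0.03 over all genes. The remaining 3 did not pass: Apoa1 differed by 1.15 (interval 0.18 to 2.12, adjusted p = 0.0566), Apob by 0.15 (-0.11 to 0.42, adjusted p = 0.316) and Apoc3 by 0.04 (-0.50 to 0.57, adjusted p = 0.911).

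For Apoe the classes were apart in every library. Cells with Aire 0 held 37.1 Apoe UMIs per 10000 in the Aire trace library, 21.0 and 25.6 in isotype weeks 2 and 10, and 23.3, 27.7, 28.6 and 28.7 in anti-RANKL weeks 2, 4, 6 and 10. Cells with Aire above 1.5 held 2.66, then 0.596 and 1.14, then 1.64, 5.77, 9.17 and 1.05 in the same order. The lowest value without Aire exceeded the highest with Aire, and the Aire-high cells of anti-RANKL weeks 4 and 6 held the most among their class. The share with Apoe at 2000 UMIs averaged 69.4% against 29.9%, lower in 7 of 7 libraries (difference -39.5 ± 13.2 points, SD, exact sign-flip permutation p = 0.01562, two-sided). Without thinning, with the Aire-high cells the deeper ones, the difference was -12.6 points (exact permutation p = 0.0625), and anti-RANKL weeks 4 and 6 were higher with Aire. In the Aire trace, isotype and anti-RANKL weeks 2 and 10 libraries, the Aire-high share of 10.3 to 25.5% was below the pooled T cell share of 33.3%. In anti-RANKL weeks 4 and 6 the Aire-high share was 50.8% and 71.2%, beside 50.3% and 68.2% in the 8 and 6 T cells of those libraries.

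Apoc1, its neighbour, went the same way at a lower level, with a mean of 1.22 UMIs per 10000 in Aire 0 cells against 27.4 of Apoe. Its share was 19.5% in Aire 0 cells of the Aire trace library, 8.20% and 9.44% in isotype weeks 2 and 10, and 9.24%, 14.2%, 14.1% and 13.9% in anti-RANKL weeks 2, 4, 6 and 10. In cells with Aire above 1.5 it was 4.09%, then 1.17% and 3.35%, then 2.37%, 2.22%, 7.98% and 2.03%. All 7 libraries were lower with Aire (difference -9.34 ± 3.70 points, SD, exact permutation p = 0.01562), and 6 of the 7 Aire-high shares lay below the pooled T cell share of 6.41%. The exception, anti-RANKL week 6 at 7.98%, lay below the 22.8% of the 6 T cells of that library.

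Apoa4 had the highest mean share of the rare genes in Aire-high cells, 7.27%. The shares were 13.5% in the Aire trace library, 10.5% and 7.42% in isotype weeks 2 and 10, and 5.37%, 0%, 6.48% and 7.56% in anti-RANKL weeks 2, 4, 6 and 10. In Aire 0 cells the shares were 1.01%, then 4.49% and 2.19%, then 0.312%, 0.143%, 1.06% and 4.46%. Every library but anti-RANKL week 4 was higher with Aire, and there only 22 cells had Aire above 1.5, so that 0 of 22 allows a share of cells with a UMI of up to 13.6%. The mean difference was 5.32 ± 3.81 points (SD, exact permutation p = 0.03125). The call on summed UMIs was lost when the Aire trace library (adjusted p = 0.0503), isotype week 2 (0.0514) or anti-RANKL week 2 (0.0613) was left out, while the rise stayed between 0.67 and 1.12 on the log2 scale over all 7 omissions. Without the library block its adjusted p was 0.225.

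Apoa2, which stands next to Apoa1 in high-density lipoprotein, had a higher share with Aire in every library. Its Aire-high shares were 6.07% in the Aire trace library, 5.81% and 5.07% in isotype weeks 2 and 10, and 3.00%, 4.07%, 3.06% and 5.65% in anti-RANKL weeks 2, 4, 6 and 10. In Aire 0 cells they were 0.849%, then 1.66% and 1.65%, then 0.532%, 0.595%, 0.755% and 1.44%, so the shares of the classes did not overlap across libraries, although the counting intervals within anti-RANKL weeks 2, 4 and 6 did. As summed UMIs per 10000 it was higher in 6 of 7 libraries and lower in anti-RANKL week 10 (0.401 against 0.466). The mean difference in share was 3.61 ± 1.03 points, higher in 7 of 7 libraries (exact permutation p = 0.01562), and every Aire 0 share was below the T cell share of 2.22%. Unthinned, 324 of 1769 Aire-high cells had Apoa2 (18.3%), 68.8% of them with 1 UMI.

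Apod rose beside Apoa2. Its Aire-high shares were 3.55%, 4.29%, 4.40%, 4.75%, 7.26%, 0.949% and 4.84% in the Aire trace, isotype weeks 2 and 10 and anti-RANKL weeks 2, 4, 6 and 10 libraries, against 0.499%, 1.18%, 0.710%, 0.424%, 0.352%, 1.10% and 1.54% in Aire 0 cells. It was higher with Aire in all libraries but anti-RANKL week 6, and the mean difference was 3.46 ± 2.08 points (SD, exact permutation p = 0.03125). At 4000 UMIs, without the deepest 5% of cells or in Epcam+ cells alone the exact permutation p was 0.0625, each over 6 libraries, for which the smallest possible p is 0.03125. Unthinned, 48.5% of 200 Aire-high Apod cells had a single UMI, against 84.6% of 104 Apod cells without Aire, but the Aire-high cells were the deeper ones, which by itself lowers that share.

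Apoa1 and Apoc3, the neighbours of Apoa4, depended on the measure. By share of cells, Apoa1 was higher with Aire in 6 of 7 libraries (mean 3.07% against 1.05%, exact permutation p = 0.03125), although its summed UMIs did not pass. Its summed UMIs passed when isotype week 10 (1.52, adjusted p = 0.0129) or anti-RANKL week 4 (1.35, adjusted p = 0.0401) was left out, with cuts at Aire 2 and Ccl21a 5 (adjusted p = 0.0279) and without the deepest 5% of cells (0.0266). Other omissions of 1 library went the other way, down to 0.83, with limma adjusted p up to 0.139. Without cells holding macrophage markers the rise was smaller still, as given below. Apoc3 shares were 6.64%, 4.78%, 3.86%, 2.07%, 0%, 0.916% and 2.13% with Aire, in the library order above, against 1.05%, 3.03%, 1.62%, 0.131%, 0%, 0% and 3.22% without. That was higher in 5 libraries and lower in anti-RANKL week 10 (mean 2.91% against 1.29%, exact permutation p = 0.09375). Without thinning its difference passed (5.14 points, exact permutation p = 0.03125). Apob averaged 0.512% against 0.250% (exact permutation p = 0.125). These exact tests are unadjusted, number 32 over 8 genes and 4 comparisons, and can go no lower than 0.01562.

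**Figure D2:**
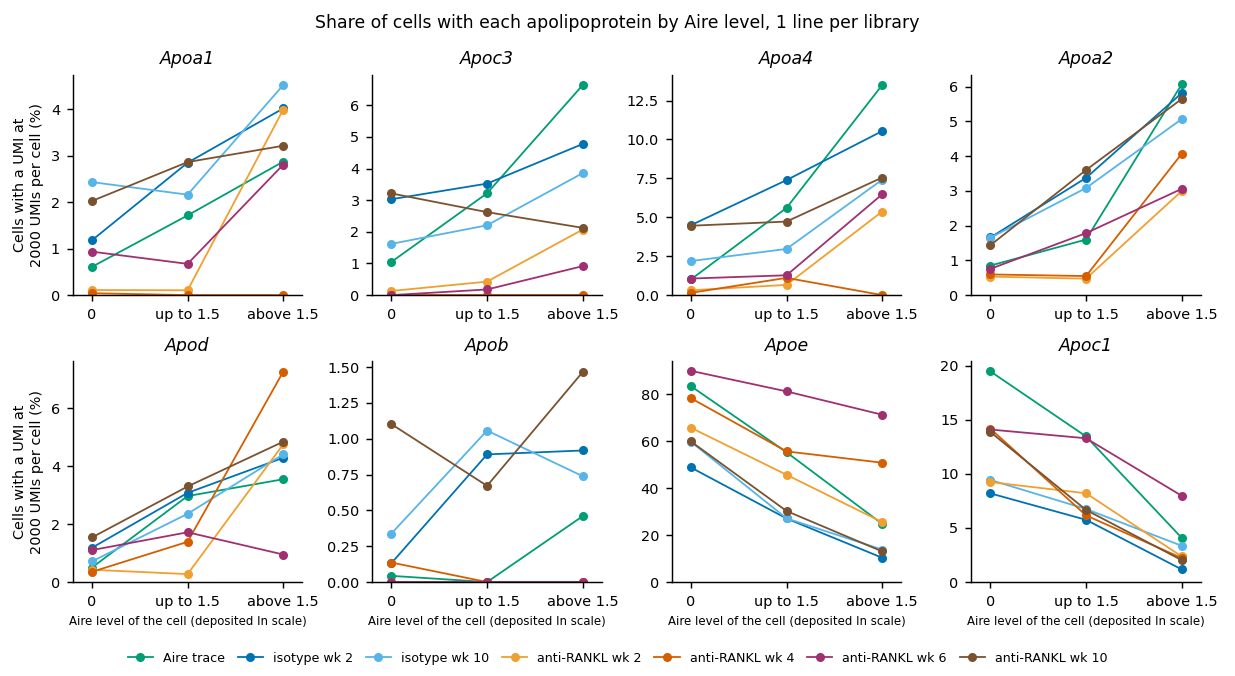
Share of cells with a UMI at 2000 UMIs per cell (%, vertical axis, scaled per gene) against the cell's Aire level in 3 classes, 1 line for each of the 7 libraries. The Apoe and Apoc1 lines fell in every library, and every Apoa2 line ended higher than it began.

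With low Aire (up to 1.5) against Aire 0, the fall of Apoe and Apoc1 was already present. Apoe fell by 1.65 (SE 0.14, limma adjusted p = 6.63e-05), Apoc1 fell by 0.88 (SE 0.15, adjusted p = 0.00227) and Apod rose by 0.56 (SE 0.14, adjusted p = 0.0145). So 1 of 8 was called higher, where 9.28% of all genes were, and 2 lower, where 13.2% were. The Apod call was lost without isotype week 10 (adjusted p = 0.0512), without the library block (0.161) and without macrophage-marked cells (0.118). Apoa4 differed by -0.05 in summed UMIs (adjusted p = 0.832), yet its share was higher in 7 of 7 libraries, at a mean of 3.39% against 1.95% (exact permutation p = 0.01562). Shares of Apoe averaged 46.01% and of Apoc1 8.62%, both lower in 7 of 7 libraries.

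Between low and high Aire, Apoe fell by a further 1.97 (SE 0.27, limma adjusted p = 0.00164) and Apoc1 by a further 1.30 (SE 0.14, adjusted p = 0.00055), and Apoa2 rose by 1.18 (SE 0.30, adjusted p = 0.0262). Of all genes, 5.87% were called higher and 8.54% lower. Apoa4 (0.99, adjusted p = 0.0634), Apod (0.72, adjusted p = 0.106) and Apoa1 (0.75, adjusted p = 0.262) did not pass. The Apoa2 call was lost without the Aire trace library (adjusted p = 0.0593), isotype week 10 (0.0525) or anti-RANKL week 2 (0.0773) and under 8 of 13 other alternatives, with adjusted p from 0.0559 (genes in at least 3 cells tested) to 0.410 (cuts at Aire 2 and Ccl21a 5), among them 0.0571 without the library block. The Apoa4 difference passed without anti-RANKL week 4 (1.28, adjusted p = 0.00906) and under 7 other alternatives.

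Among cells without Aire, those with Ccl21a above 4 are rich in RNA of a chemokine that draws T cells into the medulla. Not every cortical TEC marker was lower in them. Over libraries Prss16 was at 0.956 to 2.95 UMIs per 10000, against 0.966 to 3.54 in the remaining Aire 0 cells. Ackr4 was at 0.115 to 0.272 against 0.533 to 1.32. Compared with the remaining Aire 0 cells, the Ccl21a-high cells had less of the chromosome 9 genes: Apoa4 fell by 2.04 (SE 0.53, limma adjusted p = 0.0233), Apoc3 fell by 1.82 (SE 0.49, adjusted p = 0.0263) and Apoa1 fell by 1.495 (SE 0.47, adjusted p = 0.0445). Apoc1 rose by 0.72 (SE 0.20, adjusted p = 0.0316). That is 3 of 8 lower, where 19.3% of all genes were, and 1 higher, where 7.06% were, with a median of -0.65 for the 8 and -0.06 for all genes. Apoa2 (-0.99, adjusted p = 0.0616), Apob (-0.31, adjusted p = 0.169), Apod (-0.27, adjusted p = 0.243) and Apoe (0.29, interval -0.48 to 1.05, adjusted p = 0.553) did not pass.

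These 4 calls lay close to the threshold. Leaving out the Aire trace library, isotype week 2, isotype week 10 or anti-RANKL week 10 ended all 4 of them. Over those omissions the adjusted p ran from 0.0591 to 0.0706 for Apoa4, 0.0631 to 0.0772 for Apoc3, 0.0743 to 0.115 for Apoa1 and 0.0821 to 0.0877 for Apoc1. Anti-RANKL week 2 also ended those of Apoc3 (0.0508) and Apoc1 (0.0515), and anti-RANKL week 6 that of Apoa1 (0.0593). Testing all genes found in at least 3 cells also ended all 4 (adjusted p 0.0532 to 0.0874). Weighting libraries by cells ended those of Apoc3 (0.0566), Apoa1 (0.112) and Apoc1 (0.129), a pseudocount of 0.5 that of Apoa1 (0.0977), and leaving out the library block those of Apoa1 and Apoc1 (0.0694 and 0.0577). Without anti-RANKL week 6 the fall of Apoa2 passed (adjusted p = 0.0475).

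By share of cells the Ccl21a-high class was lower in Apoa4 than the remaining Aire 0 cells in 6 of 7 libraries. Anti-RANKL week 6 went the other way (mean 0.551% against 3.10%, exact permutation p = 0.03125). Apoa4 was in 0.374% of it in the Aire trace library, 1.59% and 0.294% in isotype weeks 2 and 10, and 0.202%, 0.0312%, 1.18% and 0.183% in anti-RANKL weeks 2, 4, 6 and 10, all below the T cell share of 2.56%. In the remaining Aire 0 cells Apoa4 was in 3.18%, then 5.90% and 3.41%, then 0.490%, 0.361%, 0.930% and 7.45%. Those above the T cell share were the Aire trace, isotype and anti-RANKL week 10 libraries. Apoc3 averaged 0.189% against 2.303% (exact permutation p = 0.0625), Apoa1 0.393% against 1.68% (exact permutation p = 0.04688) and Apoa2 0.567% against 1.502%, lower in 7 of 7 libraries (exact permutation p = 0.01562).

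Apoc1 and Apoe shares went the other way. Apoc1 was in 22.3%, 13.0%, 15.6%, 11.3%, 14.3%, 16.7% and 20.6% of Ccl21a-high cells in the library order above, against 9.96%, 5.88%, 5.47%, 6.02%, 14.0%, 11.1% and 9.16% of the other Aire 0 cells. All 7 libraries were higher (7.45 ± 4.21 points, SD, exact permutation p = 0.01562), anti-RANKL week 4 by the least. Apoe was in 90.7%, 78.5%, 79.6%, 71.3%, 74.2%, 89.1% and 83.7% against 58.3%, 34.3%, 47.0%, 56.8%, 86.2%, 90.9% and 43.1%. It was higher in 5 of 7 libraries (21.5 ± 21.7 points, SD, exact permutation p = 0.0625) and lower in anti-RANKL weeks 4 and 6.

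The Aire 0 cells without high Ccl21a are mixed, and Apoe divided them. At least 2 markers of cortical TECs (Prss16, Psmb11, Ackr4, Cxcl12, Ly75, Dll4) were present in 866 of them, and Apoe was found in 85.9% of these against 42.4% of the other 1226. Per library the shares were 81.7% against 40.6% (Aire trace), 70.6% against 18.4% and 88.2% against 29.1% (isotype weeks 2 and 10), and 81.8% against 34.6%, 93.3% against 77.1%, 94.8% against 86.9% and 78.7% against 29.9% (anti-RANKL weeks 2, 4, 6 and 10). The marked cells were higher in all 7. With at least 2 tuft cell markers (395 cells) Apoe was in 30.3% against 67.6% and Apoc1 in 2.62% against 10.5%, and the tuft-marked cells were lower in all 7 libraries for Apoe and in all but isotype week 10 (5.65% against 5.44%) for Apoc1. Apoa4 was in 1.43% of the cortical-marked cells and 3.84% of the others, but the libraries differed. It was in 2.94% against 3.36% (Aire trace), 5.44% against 6.10% and 0% against 4.89% (isotype weeks 2 and 10), and 0.224% against 0.725%, 0.117% against 0.672%, 1.65% against 0.182% and 3.64% against 8.87% (anti-RANKL weeks 2, 4, 6 and 10). These gates were set from marker lists and were not tested.

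Markers of other cells moved with Aire and with the genes. Some lists of other TECs had lower sums with Aire, as Apoe and Apoc1 did: 4 markers of Ccl21a-high TECs summed to 109 to 290 UMIs per 10000 over libraries in Aire 0 cells and 7.06 to 44.1 in Aire-high cells. The sums were 3.85 to 8.13 and 0.741 to 2.81 for 6 markers of cortical TECs, and 3.18 to 7.13 and 0.892 to 1.69 for 7 of tuft cells. Single markers could differ from their list, and Dll4 of the cortical list was at 0.0384 to 0.0909 in Aire 0 and 0.0687 to 0.181 in Aire-high cells. The 6 markers of keratinised TECs overlapped, at 1.83 to 11.6 and 1.30 to 5.35, and were higher with Aire in anti-RANKL week 4 (5.35 against 2.38). Their part in the falls was not tested. The 10 macrophage and dendritic markers, all listed, summed to 0.577 to 3.71 UMIs per 10000 in Aire 0 cells and 4.40 to 9.74 in Aire-high cells, of which Lyz2 made 3.21 to 7.04. In Aire-high cells the others were Fcer1g at 0.212 to 1.76, C1qb at 0.226 to 0.661, C1qa at 0.0529 to 0.285, C1qc at 0.133 to 0.265, Mrc1 at 0.0529 to 0.229, Cd68 at 0.0767 to 0.131, Csf1r at 0.0168 to 0.0974, Adgre1 at up to 0.0803 (0 in 2 libraries) and Itgax at up to 0.0130 (0 in 3). In Aire 0 cells C1qb was at 0.00630 to 0.153, below its Aire-high range, and Itgax was at 0. The Aire 0 ranges of the other 8 overlapped their Aire-high ranges, as for Lyz2 (0.208 to 3.57), Fcer1g (0.0333 to 0.260) and Cd68 (0.0253 to 0.152). The rare genes were more frequent with these markers when pooled: among Aire 0 cells without high Ccl21a, the 162 cells with at least 2 of them had Apoa4 in 10.1%, Apoc3 in 8.12%, Apoa2 in 5.65%, Apoa1 in 4.47%, Apod in 3.73% and Apob in 1.64%. The 1930 cells with fewer had 2.201%, 1.55%, 1.04%, 1.20%, 0.584% and 0.283%. These are pooled values, and the marked cells came unevenly from the libraries. By library Apoa4 was in 15.2% against 1.99% (Aire trace), 8.28% against 5.33% and 5.07% against 3.19% (isotype weeks 2 and 10), 0.461% against 0.492% (anti-RANKL week 2) and 21.7% against 5.57% (week 10), with only 6 and 3 marked cells at weeks 4 and 6. Without every cell that had 2 such markers, Apoa2 rose with Aire by 1.08 (limma adjusted p = 0.00172), Apod by 0.87 (0.00577) and Apoa4 by 0.66 (0.0417), and Apoa1 differed by 0.47 (0.309). In the Ccl21a comparison the same omission ended the Apoa1 call (-1.47, adjusted p = 0.0567).

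The sum of the fibroblast markers, mostly Dcn, moved with Apoe. All 6 were listed, and their sum was 2.59 to 7.16 per 10000 in Aire 0 cells and 0.291 to 2.63 in Aire-high cells, of which Dcn made 2.39 to 6.95 and 0.205 to 2.50, with Pdgfra at 0 in 3 and in 5 of the 7 libraries. Col3a1 and Lum were also lower with Aire, with 395 against 83 UMIs and 511 against 60, whereas Col1a1 had 104 UMIs in Aire 0 cells (up to 0.0577 per 10000) and 331 in Aire-high cells (up to 0.235), and Col1a2 reached 0.0719 and 0.0649. Among Aire 0 cells without high Ccl21a, 174 cells with at least 2 of them had Apoe in 89.1%, against 58.0% (higher in all libraries but anti-RANKL week 6), and Apoc3 in 0%, against 2.27%. Without all such cells Apoe fell by 3.56 and Apoc1 by 2.18 on the log2 scale between high Aire and Aire 0. Cells with Dcn as their only marker of the list stayed in, and their part was not tested.

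The antibody time course asked whether the genes left and returned with the Aire+ cells. Each time was 1 library, so no test was made. The share of Ptprc 0 cells with any Aire UMI was 68.0% and 66.0% in isotype weeks 2 and 10, and 17.2%, 4.27%, 33.5% and 57.8% in anti-RANKL weeks 2, 4, 6 and 10. Apoa4 was in 7.74% and 4.66% of all Ptprc 0 cells in isotype weeks 2 and 10, and in 0.618%, 0.170%, 1.95% and 5.71% after anti-RANKL. The isotype libraries, of different age, differed between themselves, and the values of anti-RANKL weeks 2, 4 and 6 lay below both. Without thinning Apoa4 was in 21.1% and 8.90% with isotype antibody, in 1.61%, 0.414% and 3.62% in anti-RANKL weeks 2, 4 and 6, and in 129 of 1172 cells in week 10.

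The remaining rare genes were also below both isotype libraries at anti-RANKL weeks 2, 4 and 6, though not all were lowest at week 4. Apoa1 was in 2.79% and 3.30% of cells with isotype antibody and in 0.312%, 0.0389%, 1.18% and 2.65% after anti-RANKL. Apoc3 was in 3.87% and 2.73%, then 0.268%, 0%, 0.179% and 2.68%. Apoa2 was in 3.81% and 3.47%, then 0.654%, 0.650%, 1.32% and 3.48%. Apod was in 2.96% and 2.70%, then 0.632%, 0.496%, 1.20% and 3.15%, and Apob in 0.659% and 0.672%, then 0%, 0.13%, 0% and 1.16%. Apob was not listed at weeks 2 and 6, nor Apoc3 at week 4, meaning under 3 cells, counted here as 0. At least 1 of these 6 genes was found in 16.0% and 13.4% of cells with isotype antibody and in 2.13%, 1.49%, 5.00% and 14.0% after anti-RANKL, and in 6.31% in the Aire trace library. In cells with Ptprc UMIs the same share was 14.6% and 13.9%, then 0.553%, 0%, 9.69% and 21.8%, on 11 to 38 cells per library. Its part in the values of the Ptprc 0 cells was not tested. At anti-RANKL weeks 2, 4 and 6 each of the 6 genes lay below its T cell share, so those shares are not read as expression. This held for Apob in the isotype libraries too.

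Apoe ran opposite. It was in 27.2% and 32.3% of cells with isotype antibody, and in 61.2%, 77.1%, 85.2% and 36.1% in anti-RANKL weeks 2, 4, 6 and 10, highest at week 6, whereas the share of Aire+ cells was lowest at week 4. The Aire trace library, without antibody, was at 74.5%. Apoc1 was in 4.69% and 6.17%, then 8.76%, 13.8%, 13.0% and 7.92%, and in 17.3% in the Aire trace library. As summed UMIs per 10000, Apoe was at 6.51 and 8.29 with isotype antibody and at 19.0, 26.4, 21.4 and 10.1 after anti-RANKL. Without thinning Apoe was in 65.7% and 56.1%, then 90.0%, 89.6%, 96.5% and 60.3% of cells. The share of Aire 0 cells, in which Apoe was high, moved over the same weeks, and its part in these values was not tested.

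Within cells with an Aire UMI the shares differed by library as well. Apoa4 was in 9.26% (7.31 to 11.5) and 5.94% (4.42 to 7.78) of them in isotype weeks 2 and 10, and in 2.10% (0.604 to 5.15), 0.715% (up to 7.13), 3.56% (1.58 to 6.79) and 6.62% (4.87 to 8.76) after anti-RANKL. The intervals of weeks 2, 4 and 6, the latter from 62 and 241 Aire+ cells, lay below that of isotype week 2 and overlapped that of isotype week 10. Apoe was in 17.1% (14.5 to 20.0) and 18.2% (15.7 to 21.0), then 39.5% (32.7 to 46.6), 53.9% (40.8 to 66.7), 76.8% (70.9 to 82.0) and 18.7% (15.9 to 21.9). Thus at weeks 2, 4 and 6 Apoe was more frequent also among Aire+ cells, and at week 10 it lay just above both isotype values, with overlapping intervals. Among T cells deep enough, Apoe was in 15.3% and 34.3% of 11 each with isotype antibody, and in 29.1%, 50.3%, 68.2% and 23.5% of 7, 8, 6 and 6 at anti-RANKL weeks 2, 4, 6 and 10. The T cell share was thus above both isotype values at weeks 4 and 6, as in the Aire+ cells, but not at week 2, and its part in the Aire+ values was not tested. The Aire+ cells also differed in their mix. Those with low Aire were 312 of 768 and 274 of 823 in isotype weeks 2 and 10. After anti-RANKL they were 141 of 203, 40 of 62, 132 of 241 and 224 of 677. The part of this mix was not tested either.

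**Figure D3:**
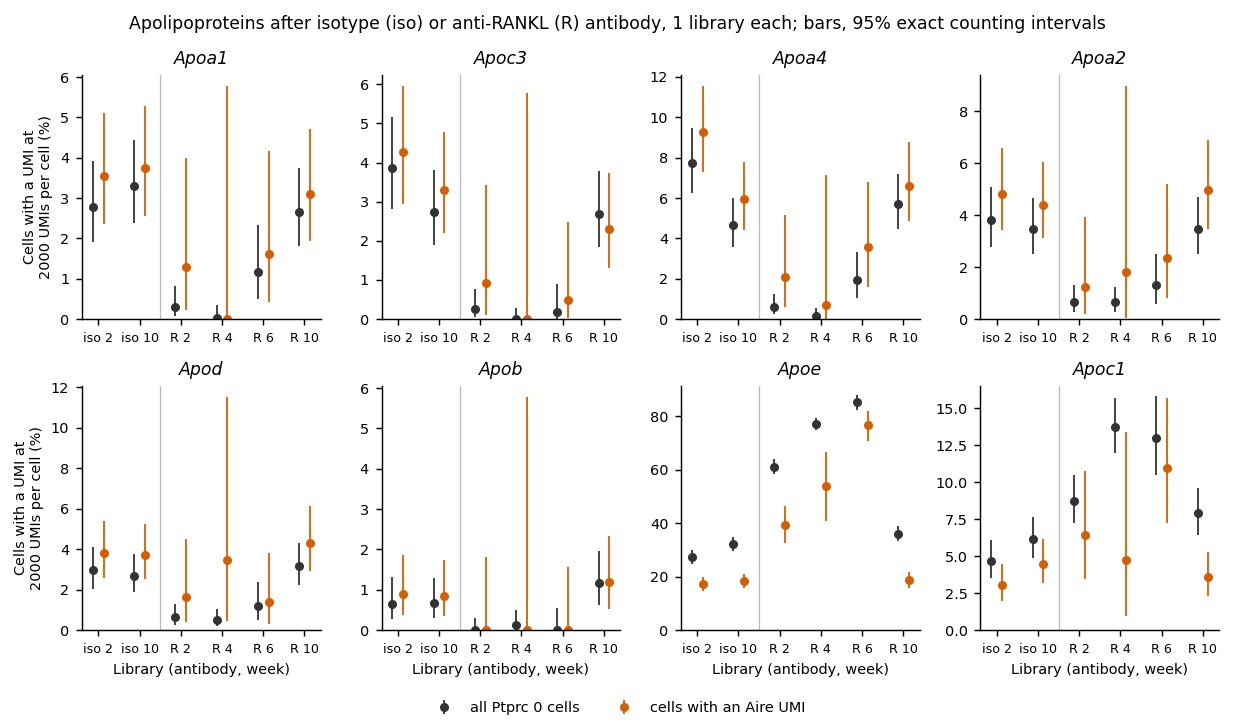
Share of cells with a UMI at 2000 UMIs per cell (%, vertical axis, scaled per gene) in the isotype (iso) and anti-RANKL (R) libraries by week, in all Ptprc 0 cells (black) and in cells with an Aire UMI (orange). Bars are 95% exact counting intervals of 1 library each. Apoa4 went from 7.74% in isotype week 2 to 0.170% at anti-RANKL week 4 and 5.71% at week 10, and Apoe from 27.2% to 77.1% and 36.1%.

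The neighbours were then looked for in the same cells. The number of cells with both genes was set against the number expected if they were independent within each library and Aire class. Apoa4 and Apoc3 were found together in 202 cells where 55 were expected (3.67 times), Apoa1 and Apoc3 in 98 where 25.3 were (3.88) and Apoa1 and Apoa4 in 137 where 46.8 were (2.93). Of the cells with Apoc3, 59.2% also had Apoa4, and of those with Apoa4, 32.4% had Apoc3. All 3 genes were present in 80 cells, 2 of them in 197 and 1 in 652. Cells of a library are not replicates, so these ratios are descriptions.

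The other pairs gave the scale. The 24 pairs that are not neighbours had ratios of 0.827 to 2.33, with a median of 1.12. Among the 12 of them that join 2 of the 6 rare genes, the median was 1.65, and the highest were Apoa1 with Apob (13 cells where 5.59 were expected, 2.33) and Apob with Apod (2.00). So rare apolipoproteins occurred together more often than expected even from different chromosomes, but less than on chromosome 9. Apoe and Apoc1, also neighbours, were together in 1561 cells where 1437 were expected (1.09), with 90.4% of Apoc1 cells having Apoe. With Apoe in 78.2% of all cells this ratio has little room above 1, so it cannot be set beside those of the rare pairs.

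The chromosome 9 ratios were higher in cells without Aire and on stricter counts, and so were those of part of the unlinked rare pairs. In Aire 0 cells the chromosome 9 ratios were 8.95 for Apoa1 with Apoc3 (28 cells), 8.73 for Apoa4 with Apoc3 (47 cells) and 7.58 for Apoa1 with Apoa4 (33 cells), against 3.39, 2.97 and 2.42 in cells with Aire above 1.5. With 2 or more UMIs of each gene required they were 8.38, 8.33 and 7.51, and with cells thinned to 2000 UMIs 8.73, 9.19 and 7.23. Within tertiles of depth, beside library and Aire class, they were 3.75, 3.48 and 2.82. Of the unlinked pairs, of which 3 were split by Aire, Apoa4 with Apod was at 2.38 in Aire 0 cells (10 cells) against 1.39 in Aire-high cells, Apoa2 with Apoa4 at 2.13 (13 cells) against 1.20 and Apoa2 with Apod at 1.94 (7 cells) against 1.23. The expected numbers did not divide Aire 0 cells by Ccl21a, although the chromosome 9 genes were on average less frequent in the Ccl21a-high ones. The part of this mix in the Aire 0 ratios was not tested. The median of the 12 unlinked rare pairs went from 1.65 to 1.86 after thinning and 2.225 with at least 2 UMIs, but Apob with Apod went from 2.00 to 1.13 and 1.08, Apoa1 with Apoa2 from 1.14 to 1.01 after thinning and Apoa1 with Apob from 2.33 to 1.55 with at least 2 UMIs, on few cells. By library, Apoa4 and Apoc3 gave 3.34 in the Aire trace library, 2.75 and 5.05 in isotype weeks 2 and 10, and 8.61, 10.5 and 5.62 in anti-RANKL weeks 2, 6 and 10, where weeks 2 and 6 had only 3 and 4 such cells and week 4 had none.

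Strong Apoa4 cells had the neighbours most often. Among the 125 cells with 10 or more Apoa4 UMIs, 71.2% had Apoc3 and 41.6% had Apoa1, whereas among 498 cells with 1 to 9 UMIs 22.7% and 17.1% did. For the unlinked Apoa2 the shares were 20.0% and 18.9%, and for Apod 20.8% and 13.1%. The unlinked Apob, on few cells, was also more frequent in the strong ones, at 6.4% (8 cells) and 2.61% (13 cells). Cells without Apoa4 had Apoc3 in 1.83%, Apoa1 in 2.44%, Apoa2 in 6.36% and Apod in 4.08%, at a median depth of 7720 UMIs against 14556 in the strong cells and 13094 in the weak ones.

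**Figure D4:**
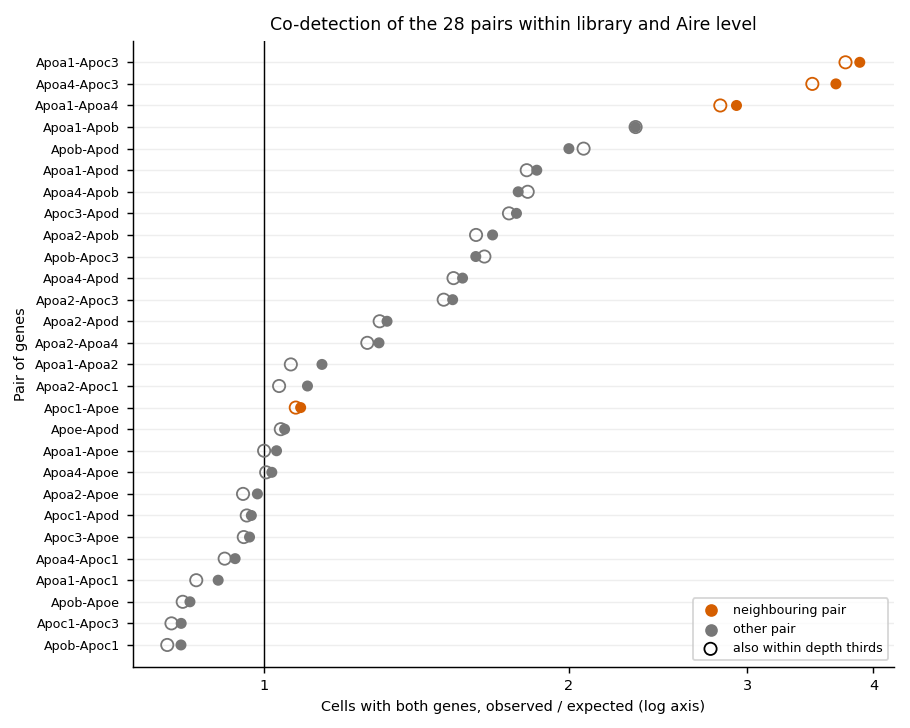
Number of cells with both genes of a pair, observed over expected within library and Aire level (log axis), for all 28 pairs of the 8 genes. Open circles are computed within tertiles of depth as well. The 3 pairs on chromosome 9 stand highest at 2.93 to 3.88. Pairs with Apoe, which was in 78.2% of cells, can rise little above 1, so Apoe with Apoc1 at 1.09 is not on the scale of the rare pairs.

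The surroundings held further apolipoproteins. Within 300 kb of Apoa4, 8 genes had a UMI in at least 20 cells. Apoa5, a plasma triglyceride regulator 27.9 kb from Apoa4, was in 27 cells, 19 of them with Apoa4 where 4.44 were expected (4.28 times). Genes of general use in the same window were near 1: Sik3 at 1.28, Zpr1 at 1.05, Sidt2 at 1.03, Pafah1b2 at 0.985 and Bud13 at 0.934. Around Apoc1, of 31 genes, Apoc2, the activator of lipoprotein lipase (14 cells where 7.29 were expected, 1.92), and Apoc4 (34 where 22.1 were, 1.54) had the highest ratios.

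**Figure D5:**
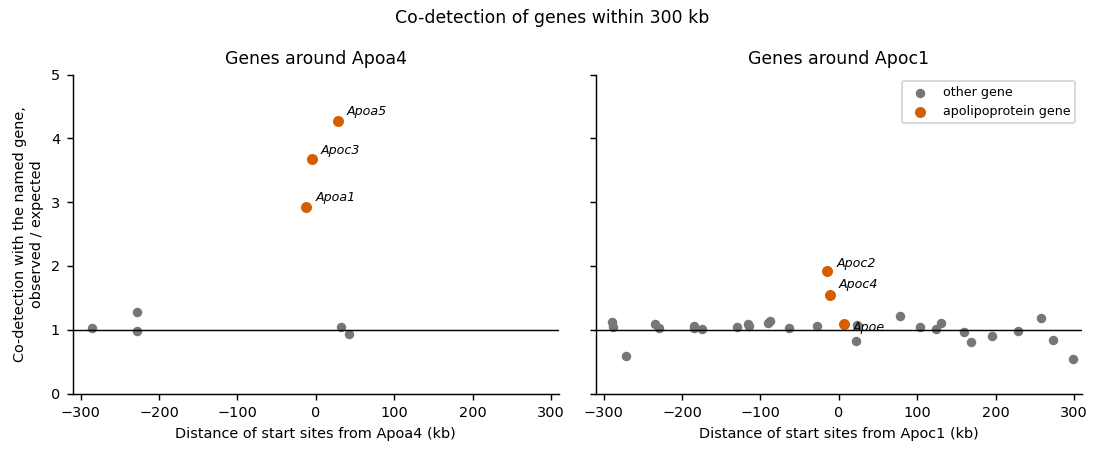
Co-detection (observed over expected cells) of genes within 300 kb of Apoa4 (left) and Apoc1 (right), against the distance between start sites in kb. Apolipoproteins are orange. Apoa5, Apoc3 and Apoa1 stand at 4.28, 3.67 and 2.93 around Apoa4, and the other genes there are at 0.934 to 1.28.

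Over the cells of each library, with every listed gene that had at least 10 cells, the gene most like Apoa4 was Apoc3, at a mean Pearson r of 0.644 over 4 libraries (0.571 to 0.684). Apoa1 came next (0.386, 6 libraries), then Hsd17b6, a steroid and retinol dehydrogenase of liver (0.331, 5 libraries). Apoc3 was also close to Guca2b, the gut peptide uroguanylin (0.356, 4 libraries). For Apoe the likest genes were Gas1 (0.682), Mgp (0.610) and Gsn (0.586), over 7 libraries, and for Apoc1 they were Apoe (0.256), Mgp (0.229) and Ifi27l2a (0.194). Apoa2 and Apod both had the milk protein gene Csn2 first, at only 0.175 and 0.192, and Apob had Ryr2 first at 0.179 over 3 libraries. The cells of a library share its depth and its background, and values this low are no more than an order.

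Other genes of lipid transport were given by fixed lists. Between high Aire and Aire 0, of 12 other apolipoproteins tested 3 rose (Apoo 0.49, Apoh 0.75, Apoa5 0.21) and 3 fell (Clu -1.10, Apol9a -1.16, Apol9b -0.65), with a list median of 0.02. Clu, or clusterin, was thus lower along with Apoe. Of 10 lipoprotein receptors and uptake genes 3 rose, among them Lrp8 (0.78) and Sorl1 (0.27), and 4 fell, among them Lrp1 (-1.19), Vldlr (-1.14) and Sort1 (-0.82). Lrp1, Vldlr and Lrp8 encode receptors that bind Apoe. Of 12 genes of assembly, lipid transfer and lipolysis, Tm6sf2 rose (0.29) and 4 fell: Pltp (-2.46), Abca1 (-1.26), Angptl4 (-1.13) and Lipc (-0.84). Pltp and Abca1 move phospholipid and cholesterol between cells and high-density particles. The list medians were -0.07 and -0.21, against -0.03 for all genes. Since 17.0% of all genes were called higher and 25.4% lower, nothing particular to these lists is read from the counts.

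The liver and gut lists were taken on the same comparison, against the same background of 17.0% higher and 25.4% lower. Of 11 hepatocyte secreted proteins tested, Itih3 (0.53, limma adjusted p = 0.0171) and Fgg (0.99, adjusted p = 0.0230) rose and none fell, with a median of 0.34, and of 9 enterocyte genes only Dgat1 was called (-0.48, adjusted p = 0.0195). Of 15 liver and gut transcription factors 5 rose, among them Cdx1 (3.25), Cdx2 (0.69), Gata4 (0.29) and Nr1h4 (0.12), and Hnf4g (-0.28) fell. Hnf4a, whose motif was searched above, differed by -0.03 (adjusted p = 0.460). In the Ccl21a comparison, where 19.3% of all genes were lower, 4 of the 9 enterocyte genes were lower (Vil1, Cdh17, Fabp1, Rbp2), as were 4 transcription factors (Cdx1, Foxa1, Hnf4g, Foxa2), 2 hepatocyte genes (Hp, Trf), 5 receptors (Sorl1, Sort1, Scarb1 and Vldlr among them), 4 assembly genes (Lipc, Lpl and Tm6sf2 among them) and Apoc2. Lcat was the single one of these lists called higher. The genes named for the Ccl21a comparison, and those past the first 4 of a list, were named after their values were seen.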

How the data were processed

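The libraries were made on the 10x Genomics platform. The authors counted UMIs with Cell Ranger 2.2.0 against mm10, kept genes found in at least 3 cells of a library and cells within limits on genes and mitochondrial share, and normalised with Seurat 2.3.4. The values they deposited are the natural log of 1 plus UMIs per 10000 UMIs of the cell (the methods name another scale factor, but the values sum to 10000). Whole UMIs were recovered from every value of the per-library files, within 0.001. In the tables of pooled libraries, 10760 columns of cells were not used.

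limma 3.58.1 was run in R 4.3.3, and all else in Python 3.11.15 with pandas 2.3.3, scipy 1.17.1 and numpy 2.4.6. Cells with Ptprc 0 were classed by Aire (0, up to 1.5, above 1.5) and Ccl21a (above 4), UMIs were summed per library and class, and log2(UMIs per 10000 + 0.1) was compared within library, the library being the block, with limma's moderated test (trend, two-sided) and Benjamini-Hochberg adjustment over 17709 genes with a UMI in at least 20 cells (adjusted p under 0.05). Every class of at least 20 cells entered, which held for all 7 libraries. Members were also tested by an exact two-sided sign-flip permutation over libraries of the share of cells with a UMI at 2000 UMIs, computed exactly over all thinnings. The libraries hold different treatments and ages, so the spread between them is not only that of replicates. No doublet caller was run. Reads of neighbouring genes could not be reassigned, and strand handling is not given in the sources used here.

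On simulated data for the comparison of Aire above 1.5 with Aire 0 (17709 genes, 200 changed), 66% of 2-fold and 100% of 4-fold changes were recovered, with 1.19% of calls false. The simulation gave every gene the same spread and the libraries no differences. It changed far fewer genes than were called in the data, and none of very low mean. Its rates therefore do not carry over to rare genes whose UMIs sit in few cells. The members, lists and markers were chosen with earlier results of these data known. All 8 members are named in full. Of each list, the genes named are the up to 4 with the smallest adjusted p for Aire above 1.5 against Aire 0, and any beyond are said to be named after their values were seen. Some list genes are counted but not reported here by name. Cells of a gate were those with UMIs of at least 2 markers. The alternatives without fibroblast- or macrophage-marked cells, without anti-RANKL weeks 4 and 6, and with at least 2 UMIs in the co-detection were added after the data were seen. Gene positions are from GENCODE for GRCm38 and promoter windows from RefSeq (GRCm38.p6).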

Additional observations from a re-analysis of the deposited data

Results flagged for a closer look

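In the anti-RANKL week 4 library, Apoe at 2000 UMIs per cell was found in 74.2% of Aire 0 cells with Ccl21a above 4 and in 86.2% of the remaining Aire 0 cells, a difference of -12.0 percentage points whose counting intervals did not overlap. In 5 of the 7 libraries the difference had the opposite sign. The difference between libraries was not tested, since each condition is 1 library.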

How the results depend on the processing

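In the limma test of Aire above 1.5 against Aire 0, the calls of Apoe, Apoc1, Apoa2 and Apod held under all alternatives run, and so did those of Apoe and Apoc1 in the other Aire comparisons. In the exact test of shares, Apoe without thinning and Apod under 3 alternatives no longer passed (p = 0.0625 each, exact permutation). The library is the replicate block of these paired classes, whose numbers pair samples by pool. Without the block, 6552 genes were called for high Aire against Aire 0 (7511 with it), 1784 for low Aire against Aire 0 (3982), 1179 for high against low Aire (2551) and 3852 for Ccl21a (4672), and among the members the calls of Apoa4, Apod (low Aire), Apoa2 (high against low) and Apoa1 and Apoc1 (Ccl21a, adjusted p = 0.0694 and 0.0577) were lost. Other counts that moved were 2431 for low Aire against Aire 0 without the deepest 5% of cells and 4751 for high against low Aire with libraries weighted by cells. Leaving out 1 library gave 6112 to 8263, 2694 to 4359, 1600 to 3469 and 2985 to 4898 genes in that order of comparisons, the last being lowest without isotype week 2 (2985), and high against low Aire falling to 1655, 1600, 1662 and 1602 without the Aire trace, isotype week 2, isotype week 10 and anti-RANKL week 2 libraries. With the mean deposited value as the level, 54.8% of calls were higher for high Aire (40.1% before) and 72.7% for low Aire (41.3% before). The median co-detection ratio of the 4 neighbouring pairs was 3.30, and 7.98 after thinning to 2000 UMIs and 7.92 with at least 2 UMIs. The cause of these shifts was not tested.

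Signs turned only for values that had not passed. For high Aire against Aire 0, Apoc3 was -0.029 with a pseudocount of 0.5, -0.35 weighted by cells, -0.17 with cuts of 2 and 5, -0.014 without fibroblast-marked cells, -0.17 without macrophage-marked cells, -0.091 without anti-RANKL weeks 4 and 6, and -0.10 to 0.26 with 1 library left out. For low Aire against Aire 0, Apoa1 was -0.51 without macrophage-marked cells. Apoa4 was 0.044 with the mean deposited value, 1.00 by share at 2000 UMIs, 0.20 with the other cuts, 0.041 without the deepest cells and -0.16 to 0.086 with 1 library left out. Apob was 0.0039, 0.16, 0.039 and 0.00041 under the same 4 alternatives, 0.028 weighted by cells, 0.060 without macrophage-marked cells and -0.12 to 0.11 with 1 library left out. Apoc3 was 0.017, 0.65 and 0.022 with the mean deposited value, by share and without the deepest cells. For high against low Aire, Apoc3 was -0.017 weighted by cells, -0.13 with the other cuts and -0.011 to 0.31 with 1 library left out. For Ccl21a, Apoe was -0.053 weighted by cells. Of the 56 values of 1 member without 1 library in the Ccl21a comparison, 19 lost a call. Depth limits the rare genes, and with 0 of 22 cells holding a UMI the share of cells with a UMI may still be up to 13.6%.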

Other observations

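In the Aire trace library, Aire 0 cells with a ZsGreen UMI (413 cells) had Apoa4 in 4.60% (exact 95% interval 2.79 to 7.09) and those without (618 cells) in 1.94% (1.01 to 3.37). At 2000 UMIs per cell the shares were 1.55% and 0.645% for Apoa4, 1.47% and 0.768% for Apoc3, and 0.794% and 0.485% for Apoa1, whereas for Apoe they were 77.8% and 87.1%, and for Apoc1 17.3% and 21.0%. All of the rare gene shares lay below those of T cells at that depth, and with 1 library no test was made.

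Apoe UMIs per Apoc1 UMI in Aire 0, low Aire and high Aire cells were 19.5, 13.7 and 12.2 in the Aire trace library, 30.01, 10.9 and 7.99 in isotype week 2, 28.6, 10.4 and 7.36 in isotype week 10, 27.9, 16.3 and 13.1 in anti-RANKL week 2, 23.0, 22.0 and 21.8 in week 6, and 18.3, 10.9 and 5.53 in week 10. Anti-RANKL week 4, with only 3 Apoc1 UMIs in high Aire cells, had 19.4, 24.6 and 36.3. In most libraries the shares of both genes in high Aire cells lay below those of T cells, so the high Aire ratios are not read as expression.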
